A study of Capra hircus with 24 samples.

Results

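RNA carried by milk fat globules was compared with RNA of blood cells from the same goats, on 16 of the 24 arrays of the series: 8 arrays of milk fat globules (MFG) and 8 of peripheral nuclear cells of blood (PNCB). The arrays were chosen by their source label alone, with no measured value, and both breeds were pooled in the comparison. Each source came from 8 healthy female goats in 3rd lactation, untreated as far as the labels say. Of these, 4 were Polish White Improved (PWI) and 4 were Polish Fawn Improved (PFI). Within a breed the same goat number marks the same animal in both sources. Every array carried the sample in Cy5 and a common reference in Cy3, with no dye swap. That reference mixed equal amounts of RNA of blood nuclear cells from 7 goats in 4th lactation (4 PWI, 3 PFI), so a PNCB ratio near 0 on the log2 scale is what the design sets. The design text also places a sampling after the end of the lactation period, in a place where it may refer to the reference goats, the study goats or both. Milk RNA was extracted with a lipid tissue kit and blood RNA, after lysis of the erythrocytes, with a kit of another maker. Kit and source therefore cannot be told apart, nor can scan day and source, since the MFG arrays were scanned on another day than the PNCB arrays. Slide and source cannot be told apart either, since no slide held arrays of both sources.

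Milk fat globules are lipid droplets that mammary epithelial cells release by wrapping them in their own apical membrane. Some carry along a crescent of cytoplasm, and its RNA is used as a sample of the secreting cell that needs no biopsy. Nuclear cells of blood are the leukocytes that stay after red cells are removed. The array was designed for cattle and was hybridised here with goat RNA, so mismatches between the species can lower a probe's signal in both sources. Probes are identified by cattle transcript accessions without gene symbols, and 0 of the 26748 accessions matched the goat gene table that was given. Defining markers of the mammary epithelium or of leukocytes could therefore not be looked up to check the labels of the sources, and genes are described by accession and by class. In bulk RNA, fewer cells of a type and less RNA per cell cannot be told apart.

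A probe was taken as detected on an array where a share of at least 0.5 of its spots were marked well above background in Cy5. In MFG, 44.1% to 51.5% of probes were detected on 6 arrays, against 84.6% on the array of PWI goat 2 and 75.3% on that of PWI goat 4. In PNCB the range was 57.5% to 65.6% on all 8 arrays. The reference channel set the same MFG arrays apart, with 88.0% and 71.5% of probes detected in Cy3 against 53.4% to 57.1% on the other 6. It also set apart the PNCB arrays of PWI goats 3 and 4, with 20.4% and 19.9% against 43.2% to 46.5%, and up to 21.1% of spots on one array were marked as outliers by the scanner software. Those 4 arrays, all PWI, are kept in the results, and counts without them are given beside the main ones.

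**Figure D1:**
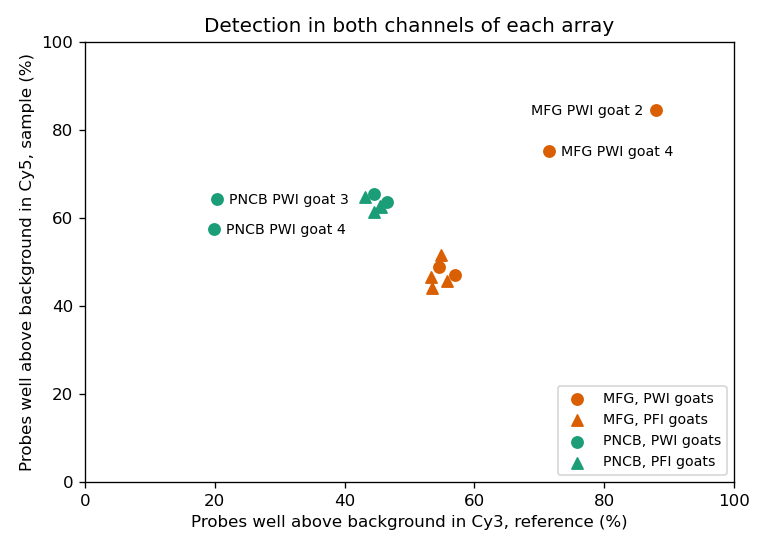
Share of probes detected (%) in Cy5, the sample, and in Cy3, the blood reference, for each of the 16 arrays by source and goat. The MFG arrays of PWI goats 2 and 4 lie above the other MFG arrays in both channels, and the PNCB arrays of PWI goats 3 and 4 have the lowest Cy3 shares, 20.4% and 19.9%.

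Most tested probes differed between the sources, in both directions. The test was limma's moderated test on log2 ratios with Benjamini-Hochberg adjustment at 0.05, over 27381 probes. These had values in both sources and were detected on every array of 1 or more of the 6 combinations of source and breed. It called 17493 probes (63.9%), of which 6987 (25.5% of those tested) were higher and 10506 (38.4%) were lower in MFG. Of the called probes, 6572 (24.0% of those tested) differed at least 2-fold, 2628 higher and 3944 lower. With the 4 arrays that stood apart left out, a choice made after their values had been seen, 8355 probes were called higher and 9791 lower, with 3299 and 3579 of them at least 2-fold. The split between higher and lower thus moved from 39.9% higher to 46% higher without those arrays. In PWI goats alone 31.5% of 11468 calls were higher, and in PFI goats alone 47.9% of 16038.

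With the arrays scaled by loess within arrays, small differences leaned towards lower in MFG and the largest ones towards higher. The balance at 4-fold and more was not recounted under other scalings. At least 4-fold apart were 708 higher and 1281 lower probes. At 8-fold the numbers were 288 and 402. At 16-fold the balance turned, with 131 higher and 101 lower. At least 64-fold apart were 35 higher and 9 lower probes, and at least 100-fold 25 and 2. Without the 4 arrays that stood apart the numbers were 162 and 100 at 16-fold, and 39 and 8 at 64-fold. The log2 ratio has an offset of 50 intensity units added to each channel, which pulls dim probes towards 0, so folds of probes that are dim in one source are understated.

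**Figure D2:**
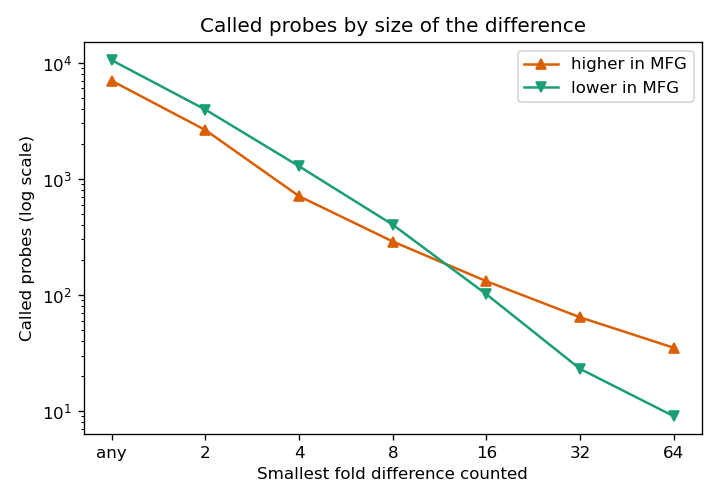
Number of called probes (log axis) that were higher or lower in MFG after loess within arrays, by the smallest fold change counted. Lower probes outnumber higher ones up to 8-fold (402 against 288), and higher ones outnumber lower ones from 16-fold on (131 against 101).

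The split by direction moved with the scaling of the arrays, while no difference of at least 4-fold under loess was called in the opposite direction. The median log2 difference over all tested probes was -0.13 with loess within arrays, and 39.9% of calls were higher. Centring each array on its median instead moved that median to -0.82 and the higher share to 19.3%. With the software's processed signals the median was -0.74 and the share 28.4%. With the deposited log ratios they were -0.60 and 32.1%, and with the Cy5 channel alone -0.13 and 43%. At 2-fold or more, where 40% of calls were higher, the share was 9.46% with median centring, 25.5% with processed signals and 29.4% with the deposited ratios. Of the 6987 probes called higher, 2752 (39.4%) were called higher under all 4 of these other scalings, and 2133 were called lower under at least 1. Of the 10506 called lower, 8729 (83.1%) were called lower under all 4, and 93 were called higher under at least 1. Of the 2628 probes at least 2-fold higher, 1458 (55.5%) were called higher under all 4, and 186 were called lower under at least 1. Of the 3944 at least 2-fold lower, 3889 (98.6%) were called lower under all 4, and 4 were called higher under at least 1. Of the 708 probes at least 4-fold higher, 687 (97%) were called higher under all 4 and 0 were called lower under any. Of the 1281 at least 4-fold lower, 1277 (99.7%) were called lower under all 4 and 0 were called higher under any. At 8-fold, all 288 higher and all 402 lower probes were called in the same direction under all 4.

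**Figure D3:**
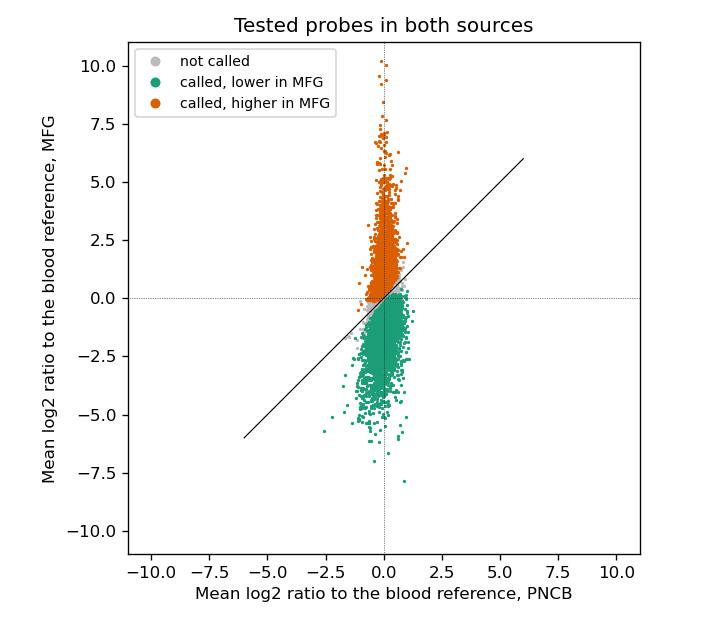
Mean log2 ratio to the blood reference in PNCB (x axis) and in MFG (y axis), 1 point per tested probe, coloured by limma's call, with the line of equal values. PNCB means stay near 0, while MFG means run from below -5 to above 7.5.

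Array measures that do not rest on single probes also differed between the sources. The 10 brightest probes of an array held 7.18% ± 0.853 (SD, n = 8) of its net Cy5 signal in MFG and 3.06% ± 0.731 (n = 8) in PNCB. The share was higher in MFG in 8 of 8 goats (exact paired permutation test, two-sided, p = 0.00781, the smallest that 8 goats allow, adjusted p = 0.013 over 5 measures). The 100 brightest held 32.5% ± 3.27 in MFG and 18.9% ± 3.12 in PNCB, again higher in 8 of 8 goats (exact p = 0.00781, adjusted p = 0.013). The 1000 brightest held 75.4% ± 8.21 and 60.2% ± 4.97, higher in MFG in 7 of 8 goats (exact p = 0.0156, adjusted p = 0.0195). The exception was PWI goat 2, whose MFG array had 55.9%. MFG signal was thus held by fewer probes than blood signal. The SD of log2 ratios over the probes of an array was 1.16 ± 0.05 in MFG and 0.39 ± 0.15 in PNCB. It was higher in MFG in 8 of 8 goats (exact p = 0.00781, adjusted p = 0.013). The reference is itself blood, so the design sets a small SD in PNCB, and this test supports nothing about the sources. The share of probes detected in Cy5 was 55.5% ± 15.5 in MFG and 62.9% ± 2.55 in PNCB, and was higher in MFG in 2 of 8 goats (exact p = 0.289, adjusted p = 0.289). The 2 goats were PWI goats 2 and 4, whose MFG arrays stood apart.

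Detection itself separated some transcripts between the sources. Of the 43653 probes on the array, 15406 (35.3%) were detected on all 16 arrays and 2172 (4.98%) on none. On all 8 MFG arrays and no PNCB array, 398 probes (0.912%) were detected. On all 8 PNCB arrays and no MFG array, 868 (1.99%) were. The MFG arrays of PWI goats 2 and 4, with their high shares of detected probes, leave fewer probes undetected on every MFG array, and that effect on the 868 was not tested.

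Calls were also counted by the pattern of detection, which the difference between the sources itself helps to set. Among the 15385 tested probes detected on all 16 arrays, limma called 5205 (33.8%) higher and 5423 (35.2%) lower, with a median log2 difference of 0.01. When these probes alone were tested, 2036 were at least 2-fold higher and 2800 at least 2-fold lower, so the lower ones were more numerous at that size. Among the 7771 detected on all PNCB arrays and on 1 to 7 MFG arrays, 4177 (53.8%) were called lower and 175 (2.25%) higher, with a median of -0.32. Among the 711 detected on all MFG arrays and on 1 to 7 PNCB arrays, 633 (89%) were called higher and 1 (0.141%) lower, with a median of 0.75. Of the 398 probes detected on every MFG array and no PNCB array, 397 (99.7%) were called higher, and of the 868 of the opposite kind 649 (74.8%) were called lower. A probe detected on fewer arrays of one source tends to be lower there by the way the classes are made, so all these shares are a description and support nothing.

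Brighter probes were called more often, and more of those calls were lower. The tested probes were put into 4 groups of like size by the mean brightness of both channels over the 24 arrays. In the dimmest group, 43.4% were called, 21.3% higher and 22.1% lower, with a median log2 difference of -0.05. Only 3 probes of that group were at least 2-fold lower, against 188 at least 2-fold higher. In the brightest group 79.4% were called, 28.3% higher and 51.2% lower, with a median of -0.43. There 2441 probes were at least 2-fold lower and 903 at least 2-fold higher. The share of lower calls increased over the 4 groups, from 22.1% to 34.2%, 46.1% and 51.2%, while that of higher calls lay between 21.3% and 28.3%. The brightness takes in the blood reference of every array and the compared samples themselves. Probes bright in blood thus tend to fall into the brighter groups by the way the groups are made. A probe of the dimmest group also has little room to be lower. These shares are a description and support nothing.

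Within single goats, PWI goat 1 and all 4 PFI goats gave like differences between MFG and PNCB. In these 5 goats, 12.2% to 13.9% of the measured probes were at least 2-fold higher in MFG and 13.7% to 15.6% at least 2-fold lower, with medians of -0.08 to -0.03. Each of the other 3 goats had at least 1 array that stood apart. PWI goat 2 had 3.61% of probes at least 2-fold higher and 24.2% at least 2-fold lower, PWI goat 3 had 15.9% and 21.9%, and PWI goat 4 had 10.1% and 16.8%. Ratios of spike-in control probes, before loess, were regressed on their medians over the 24 arrays. The slope was 0.71 on the MFG array of PWI goat 2 and 1.02 on that of PWI goat 4. It was 1.11 to 1.17 on the other MFG arrays and 0.89 to 1.06 on the PNCB arrays. Its part in the sizes of the differences was not tested. The lower calls were seen alike in all goats, with 92.8% to 97.8% of the probes called lower having that sign in each goat. The higher calls were seen in 98.2% to 99.6% of cases in the 5 like goats, in 93.6% in PWI goat 3 and 87.3% in PWI goat 4, and in 65.3% in PWI goat 2. Correlated across probes with the mean of the other 7 goats, the difference of PWI goat 2 gave r = 0.760 and those of the rest 0.850 to 0.959. These correlations share the array design and the reference pool, and probes are not independent replicates.

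**Figure D4:**
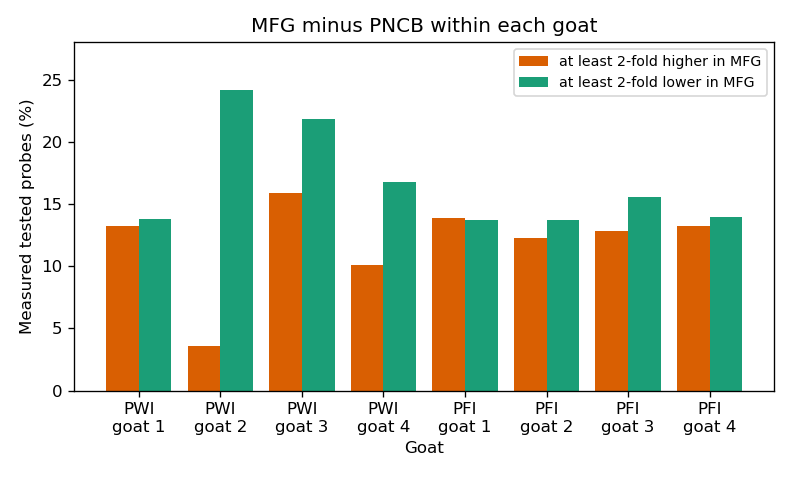
Share of measured tested probes (%) that were at least 2-fold higher or lower in MFG than in PNCB of the same goat, for the 8 goats. PWI goat 2 has the lowest share of higher probes (3.61%) and the highest share of lower ones (24.2%).

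Most called probes that all goats measured had the called sign in every goat. Of 3638 probes called higher with values in all 8 goats, 1907 (52.4%) were higher in 8 of 8 and 1357 in 7. Of 5118 called lower, 3513 (68.6%) were lower in 8 of 8 and 1216 in 7. Of 5011 such probes that limma did not call, 44 (0.878%) had one sign in all 8 goats. As called probes were chosen on these same arrays, these counts describe how the calls are made up.

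Of all tested probes, 25.5% were called higher and 38.4% lower. Among the 6987 called higher, the 2 sources did not overlap, array against array, at 2287 (32.7%). Among the 10506 called lower, they did not overlap at 5492 (52.3%). At 2-fold or more this held for 1571 of 2628 higher probes (59.8%) and 3582 of 3944 lower ones (90.8%). Without the 4 arrays that stood apart, 6 arrays against 6, it held for 6357 of 8355 higher calls (76.1%) and 6890 of 9791 lower calls (70.4%). The lower share of non-overlapping higher calls on all 16 arrays was therefore not seen without those arrays. Fewer arrays by themselves make non-overlap easier. It was counted only among probes called on these same arrays, so no share over all tested probes stands beside these values. The spread between goats of a breed was smaller in milk than in blood, with a median SD of the log2 ratio of 0.23 in MFG and 0.29 in PNCB, and it was larger in PNCB at 16142 probes (59.2%). Without the 4 arrays the median SDs were 0.15 and 0.19. The offset also narrows the spread of dim probes. Median net Cy5 signals of tested probes were 37.5 to 63 intensity units on the 6 MFG arrays that did not stand apart. On the PNCB arrays they were 108.5 to 260. The smaller SD in MFG thus describes the ratio as scaled here, and the share of the offset in it was not tested.

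On the loess scale, probes that limma did not call were mostly bounded within 2-fold. The median SE of a log2 difference was 0.15. Of the 9888 tested probes not called, 9734 (98.4%) had a 95% interval inside 2-fold in both directions. Among the 4757 of these that were detected on all 16 arrays it was 4657 (97.9%). For dim probes the offset narrows the interval, so it bounds the ratio as scaled here and not the RNA level. The interval also leaves out the choice of scaling. With median centring the median difference was -0.82 and 22042 probes were called, of which 15165 were also called with loess.

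The first probes in order of fold under each of 2 parts of the naming rule and in each direction, 4 in all, are given array by array. The first part takes probes of the same sign in all 8 goats and detected on all 8 arrays of the brighter source. The other takes probes detected on all 16 arrays. Larger differences lay outside the rule: 8 probes were called higher by more than any printed one, up to 1263-fold. All 8 lacked a value in at least 1 goat and were not detected on all 16 arrays, and 5 were not the brightest probe of their accession. No called probe (0) had a larger lower difference than the printed ones. Folds are on the scale of the ratio unless another is named, and the levels of different probes are not compared.

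Probe A_73_P034886, of cattle transcript NM_001024569, had log2 ratios of 6.001 to 7.43 with a median of 7.10 on the 8 MFG arrays, and of -1.32 to 0.31 with a median of -0.04 on the 8 PNCB arrays. The sources did not overlap, the lowest MFG array being that of PWI goat 2 and the lowest PNCB array that of PWI goat 3. The mean was 6.96 ± 0.49 (SD, n = 8) in MFG and -0.14 ± 0.49 (n = 8) in PNCB, a difference of 7.10 (SE 0.20, limma adjusted p = 1.23e-17) or 137.6-fold, with the same sign in 8 of 8 goats. This transcript was bright in milk fat globules and not well above background in blood: it was detected on 8 MFG arrays and 0 PNCB arrays, with net Cy5 signals of 22762 to 35150.5 and 5 to 12 intensity units. On the Cy5 scale after loess and Aquantile normalization it was 503-fold higher, with log2 means of 14.97 in MFG and 5.99 in PNCB. The dim side of that fold is, on each array, the higher of the probe's own signal and the lowest signal well above background. Here its mean was that of the probe's own signals, which were not well above background. The fold is therefore an estimate and not a lower bound. It holds on that scale only and is open to dye bias, since no dyes were swapped. With the Cy5 channel alone, quantile normalized, the log2 difference was 8.96. With the software's processed signals the difference was 7.96. Both tested probes of the accession were called higher, with differences of 5.002 and 7.10 and a mean of 6.05.

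Probe A_73_P059456, of Ensembl cattle transcript ENSBTAT00000028270, was measurable in both sources and had the largest higher fold among such probes under the rule. Its log2 ratios were 6.52 to 8.31 with a median of 7.97 on 7 MFG arrays, the spot of PFI goat 3 having been marked as an outlier. On the 8 PNCB arrays they were -0.18 to 0.49 with a median of 0.03. No MFG array came near the blood range. The mean was 7.67 ± 0.61 (SD, n = 7) in MFG and 0.08 ± 0.23 (n = 8) in PNCB, a difference of 7.61 (SE 0.29, limma adjusted p = 5.51e-15) or 195.7-fold, with the same sign in 7 of 7 goats. Net Cy5 signals were 30477.5 to 49870 in MFG and 86.5 to 137.5 in PNCB. With the Cy5 channel alone, quantile normalized, the log2 difference was 8.38, and with spots marked as outliers kept in the ratios it was 7.00. On the Cy5 scale after loess and Aquantile normalization the fold was 382. It was the only tested probe of its accession.

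Probe A_73_P441566, of cattle transcript NM_001014902, showed the reverse. Its log2 ratios were -5.35 to -4.85 with a median of -5.07 on the 8 MFG arrays, and -0.01 to 1.82 with a median of 0.95 on the 8 PNCB arrays. All MFG arrays lay below all blood arrays. The mean was -5.09 ± 0.19 (SD, n = 8) in MFG and 0.94 ± 0.57 (n = 8) in PNCB, a difference of -6.03 (SE 0.17, limma adjusted p = 4.87e-18), or 65.4-fold lower, with the same sign in 8 of 8 goats. Net Cy5 signals were 352.5 to 663.5 in MFG and 36685.5 to 83240 in PNCB. With the Cy5 channel alone, quantile normalized, the log2 difference was -6.07, and with median centring it was -7.998. On the Cy5 scale after loess and Aquantile normalization the probe was 42.6-fold lower. The probes of this transcript were not alike, since 2 of its 3 tested probes were called lower, with differences from -6.03 to -0.24 and a mean of -3.08.

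Probe A_73_P040092, of cattle transcript NM_205786, had the largest lower fold under the rule among probes detected on all 16 arrays. Its log2 ratios were -8.14 to -7.71 with a median of -7.83 on the 8 MFG arrays, and 0.26 to 1.499 with a median of 0.78 on 6 PNCB arrays, the spots of PWI goats 2 and 4 having been marked as outliers. The MFG arrays lay within a narrow range far below blood. The mean was -7.88 ± 0.17 (SD, n = 8) in MFG and 0.87 ± 0.52 (n = 6) in PNCB, a difference of -8.66 (SE 0.16, limma adjusted p = 5.37e-20), or 405.1-fold lower, with the same sign in 6 of 6 goats. With median centring the difference was -10.31. With the Cy5 channel alone, quantile normalized, it was -6.64. On the Cy5 scale after loess and Aquantile normalization the probe was 85.0-fold lower. Its Cy3 reference signal was 1.46 higher (log2) on the MFG arrays. Net Cy5 signals were 626.5 to 935.5 in MFG and 102099 to 139713 in PNCB. It was the only tested probe of its accession.

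**Figure D5:**
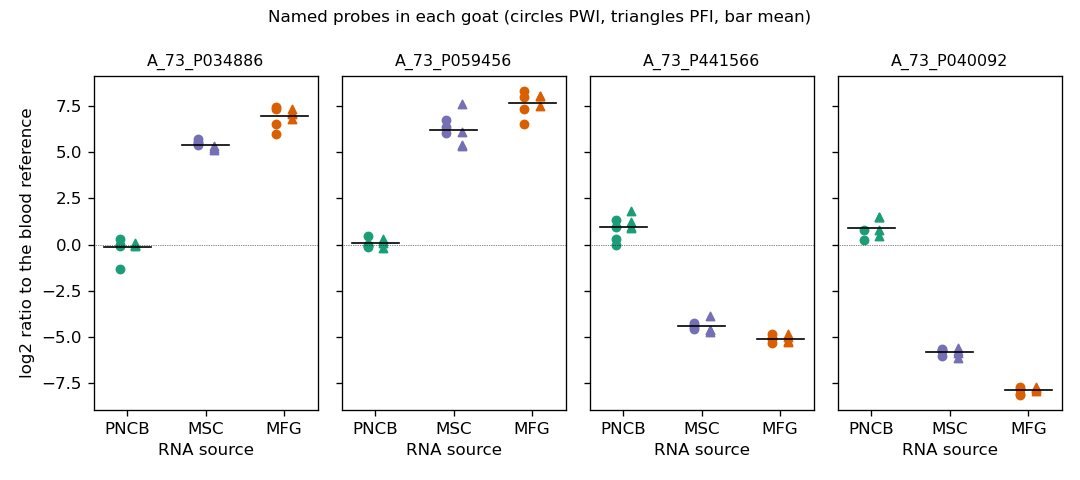
Log2 ratio to the blood reference of the 4 probes on every array with a value, by source (PNCB, MSC and MFG), 1 point per goat. For each probe the MFG points and the PNCB points do not overlap, and for NM_205786 the MFG mean is -7.88 against 0.87 in PNCB.

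The 4 probes stood at the head of longer lists. Under the first part of the rule, the 12 transcripts with the largest folds were 31.6-fold to 137.6-fold higher or 21.7-fold to 65.4-fold lower in MFG. Among the 12 higher ones, 5 were detected on no PNCB array and 5 on all 8, while 11 of the 12 lower ones were detected on all 8 MFG arrays. Transcripts of the lower list were thus still measurable in milk fat globules, and several of the higher list were not measurable in blood. Under the other part, the 6 largest folds were 66.0 to 195.7 in the higher direction and 65.4 to 405.1 in the lower. No transcript of these lists had overlapping sources, which their choice by fold and sign favours. Among all calls of at least 2-fold, 59.8% of the higher and 90.8% of the lower ones did not overlap. No share over all tested probes was counted, so the lack of overlap in these lists is a description and supports nothing.

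Few transcripts with several probes were called in opposite directions, but many were called at only some of their probes. Of 16822 tested accessions, 6481 had at least 2 tested probes. All tested probes were called higher at 1094 of them (16.9%) and lower at 1475 (22.8%), and none was called at 1123 (17.3%). At 2499 (38.6%) some probes were called in one direction and the others not. Probes were called in both directions at 290 (4.47%), and at 42 (0.648%) in both directions by at least 2-fold each. The median SD between probes of an accession was 0.29 on the log2 scale, where the SD over all tested probes was 1.09. Among the 963 accessions with at least 4 tested probes, all were called higher at 105 (10.9%) and all lower at 185 (19.2%). Counted once per accession by its brightest probe, 4604 of 16814 accessions (27.4%) were higher and 6759 (40.2%) lower, and 1871 (11.1%) and 2929 (17.4%) were so by at least 2-fold. Probes of different transcripts of one gene could not be joined without gene names.

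Lower calls outnumbered higher ones in 5 of 6 kinds of transcript record on the array. Of 19348 tested probes of curated RefSeq transcripts (accessions starting with NM_), 26.9% were called higher and 36.8% lower, with a median difference of -0.10. Of 3284 probes of Ensembl transcripts, 21.6% were higher and 38.6% lower. The 2490 probes of assembled expressed sequence tags, whose accessions start with TC, leaned most to blood, with 19.7% higher, 48% lower and a median of -0.27. Predicted RefSeq transcripts, with 462 tested probes, had 24% higher and 42% lower, and the 1520 probes of other accessions 25.1% and 42.7%. The exception was the 277 tested probes known by probe name only, with 33.6% higher, 27.1% lower and a median of 0.03. At 4-fold or more, the curated RefSeq probes held 536 of the higher and 886 of the lower calls. The members of a class differ in brightness and in the number of probes, and these shares were not tested against each other.

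Somatic cells of milk (MSC), a mixture of leukocytes and shed epithelial cells, came from the same goats and were measured on the other 8 arrays. For the 708 probes at least 4-fold higher in MFG than in PNCB, the median difference from PNCB was 2.76 in MFG and 2.01 in MSC. For the 1281 probes at least 4-fold lower it was -2.62 and -1.51. Both differences use the same blood arrays, so these values stand side by side and support no relation between the sources. MFG and MSC were also compared directly, where limma called 9534 of 27383 probes (34.8%). The MSC arrays were on other slides than the MFG arrays and were scanned on another day. Slide, scan day and source therefore cannot be told apart in this comparison either. In Cy3, 41.5% to 47.6% of probes were detected on the MSC arrays, against 53.4% to 88.0% on the MFG arrays. Among the probes described above, MFG exceeded MSC by 1.57 for NM_001024569 (SE 0.21, limma adjusted p = 5.13e-06) and by 1.45 for ENSBTAT00000028270 (SE 0.30, adjusted p = 0.000686). Neither call held under median centring, where the differences were 0.27 (adjusted p = 0.396) and 0.26 (adjusted p = 0.508). With Cy5 alone the difference for NM_001024569 was 0.38 (adjusted p = 0.109). The direct difference was -0.67 for NM_001014902 (SE 0.17, adjusted p = 0.00445), with -0.36 on Cy5 alone (adjusted p = 0.42), and -2.06 for NM_205786 (SE 0.14, adjusted p = 7.38e-09), which was called lower under all 4 other scalings. For ENSBTAT00000028270 the processed signals and the deposited ratios gave 0.70 (adjusted p = 0.162) and 0.86 (adjusted p = 0.105).

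The reference channel, which held the same pooled RNA on every array, also differed between the MFG and the PNCB arrays. Limma called 10436 of 27381 probes (38.1%) in Cy3, 5427 higher and 5009 lower on the MFG arrays, of which 291 differed at least 2-fold. That even split rests on quantile normalization: with median centring 10726 were higher and 734 lower. The median absolute Cy3 difference was 0.14 on the log2 scale over all tested probes. At the probes called higher in MFG it was 0.16, where the ratios had a median difference of 0.81. At those called lower it was 0.15, where the ratios had a median difference of -0.77. Among the 2628 probes at least 2-fold higher in MFG, 1172 were called in Cy3 and 108 differed at least 2-fold there. Among the 3944 at least 2-fold lower, 2413 were called in Cy3 and 54 differed at least 2-fold. Of all 27381 tested probes, 10436 were called in Cy3 and 291 differed at least 2-fold. Both kinds of Cy3 difference were thus more frequent among these probes than among all tested ones. For NM_001024569 the Cy3 difference was 1.18, for ENSBTAT00000028270 it was 0.51 and for NM_001014902 it was 0.38. The Cy3 signal is read on the same slides and scan days as the sample, so slide, scan day and source cannot be told apart in it.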

How the data were processed

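RNA of milk fat globules and blood nuclear cells was measured on 16 two-colour arrays, and 8 arrays of milk somatic cells entered the same fit. Median spot and background intensity of both channels were deposited as scanner files on 45220 spots per array with cattle build bosTau6 (UMD 3.1), per the file headers, which name Agilent Feature Extraction 10.7.3.1. The files also hold 0 or 1 marks per spot (unit other) and processed signals, per the file headers, with background subtracted and dyes normalized by the software. The deposited table of log10 ratios (Cy5 over Cy3) was equal to the software's own ratios, with a largest difference of 0.

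Spots marked as outliers in either channel (1.84% to 21.1% per array) were left out, then limma 3.58.1 in R 4.3.3 applied normexp (offset 50) and loess within arrays with control spots at weight 0, and spots of a probe were averaged. The order of these steps follows an earlier account of these data, in which it was settled after first counts had been seen. Tested were 27411 probes detected in Cy5 on all arrays of at least 1 of 6 groups of source and breed, 27381 of them with values in both sources. The fit had a mean for each of the 6 groups, contrasted the mean of both breeds between sources, and used lmFit, eBayes and Benjamini-Hochberg adjustment at 0.05. The share of probes recovered was tested on simulated data. No spot was saturated (0).

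The naming rule took the 12 largest folds per direction with one sign in all 8 goats and detection on all arrays of the brighter source, and the 6 largest per direction among probes detected on all 16 arrays, 1 probe per accession (its brightest). Values in all 8 goats were required in its first part. Without gene names only the first probe of each list is printed, a reduction made after the files were seen. The gene lists and cell type markers could not be run, and probe sequences were not used here. The members and lists were chosen with earlier results of these data known, and the breakdowns by detection, brightness, transcript record, scaling and goat after seeing the data. Goat numbers pair the sources, because the same animals gave both. Deviations from the group means correlated between the sources of one goat at -0.15 to -0.06 in PWI and 0.01 to 0.26 in PFI. The mean correlations with other goats of the breed were 0.02 to 0.05 in PWI and -0.10 to -0.003 in PFI. The own goat was the highest of its breed only for PFI goats 1, 2 and 3. The pairing in PWI thus rests on the labels alone. The number of arrays limits the precision. Alternatives were other scalings, flags, background and filters, paired and slide blocks, array weights, each breed alone and each goat left out.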

Additional observations from a re-analysis of the deposited data

Results flagged for a closer look

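In blood nuclear cells of PWI goats, the array of goat 4 had its net Cy5 signal held by fewer probes than the other 3 arrays of the group. The 10 brightest probes held 4.49% on that array against 2.54% to 2.71%, the 100 brightest 25.2% against 17.0% to 17.7%, and the 1000 brightest 70.2% against 57.2% to 57.8%. Each value lay far from the others for a group of 4. The 3 shares are nested and come from 1 array. It is one of the 4 arrays that stood apart, with 19.9% of probes detected in Cy3. On it 21.1% of spots were marked as outliers, and these spots were left out of the shares. In all, 46 groups of 4 values were looked at and 3 held such a value, where chance at 1 in 20 gives about 2.3.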

How the results depend on the processing

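The count of probes called between MFG and PNCB (17493) stayed within 1.5 times under the alternatives run, with 2 exceptions: 10585 when only probes detected on all 16 arrays were tested, which is a smaller set, and 11468 in PWI goats alone, which are fewer samples. The count at 2-fold or more (6572) was 13649 with median centring, 15982 with processed signals and 15676 with the deposited ratios; the cause was not tested. MFG against MSC went from 9534 to 18209 with median centring; the cause was not tested. With spots marked as outliers kept, 12588 were called, with no filter on dim probes 20347, with array weights 20134, and with slide as a random block 17335. No slide held both sources, so a slide block cannot take a slide effect out of the comparison, and that count does not check for it. The paired fit, with goat as a replicate block, called 15391 probes, 6595 of the 2-fold kind and 9604 for MFG against MSC, and changed no call of the 4 printed probes. Leaving out each goat in turn gave 16086 to 17893 calls, 6443 to 6819 at 2-fold or more, 6887 to 10156 for MFG against MSC and 8590 to 12077 in Cy3. The 4 printed probes kept their direction and call between MFG and PNCB under every alternative run for them. Alternatives for gene lists were not run, since no accession had a name. Probes near background have understated folds, and a detection limit differs between arrays that stood apart and the rest.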
